A study of Mus musculus with 8 samples.

Results

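The genes described here encode 36 enzymes of central carbon metabolism: glycolysis, the pentose phosphate pathway and the citrate cycle, with the steps that join them. They were listed by gene symbol with no cut on a measured value, although earlier results of these data were known. All 36 were found among the 21757 genes of the mouse count table and among the 60237 genes of the human tables. Of these, 16 belong to glycolysis and lactate production, 2 to gluconeogenesis, 5 to the pentose phosphate pathway, 3 to the pyruvate dehydrogenase step and 10 to the citrate cycle, where 2 of the 10 (Idh1 and Mdh1) are the cytosolic counterparts of citrate cycle enzymes. All 36 passed the filter on low counts in both experiments.

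Glycolysis splits glucose into pyruvate in the cytosol and yields ATP, and lactate dehydrogenase can turn the pyruvate into lactate. The pentose phosphate pathway branches off from glucose phosphate: its oxidative arm makes NADPH and its other arm makes ribose for nucleotides and returns sugars to glycolysis. The pyruvate dehydrogenase complex carries pyruvate into the mitochondrial citrate cycle, which feeds electrons to respiration and carbon to biosynthesis. In the intestinal epithelium, dividing crypt cells are known for high glycolysis, and the differentiated enterocytes of the small intestine absorb sugars and also carry gluconeogenic enzymes.

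RNA was sequenced in 2 experiments, and each of the 4 groups has 2 libraries. Ctnnb1-ex3 organoids, whose name is in common use for a beta-catenin allele lacking the exon that marks the protein for breakdown, were set against wild-type (WT) organoids. Organoids are self-renewing epithelial cultures, here of mouse small intestine. Per the labels, the Ctnnb1-ex3 cultures received Noggin and EGF only, while the WT cultures also received Wnt3a and R-spondin1, so genotype and medium differ together and cannot be told apart. In the knockdown experiment, libraries with a short hairpin RNA named for Prmt1 (sh-Prmt1), which encodes the main enzyme of asymmetric arginine dimethylation, were set against libraries with a scrambled hairpin (sh-scramble). The labels call these mouse intestinal organoids, but every gene identifier in the files is human, so the culture behind them is not established here. The labels do not say that replicates were separate cultures, so p-values reflect how far these libraries spread, and that spread may be technical.

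Levels are given as CPM, counts scaled to a common library total with TMM factors, which set the bulk of genes to no change. Differences are log2 fold changes from edgeR's quasi-likelihood test with their standard error (SE), and a gene was called higher or lower at a Benjamini-Hochberg adjusted p under 0.05. Where libraries are said not to overlap, this only describes 2 libraries against 2. Such separation corresponds to a two-sided exact permutation p of 0.333, and its share over all genes was not computed. The Ctnnb1-ex3 libraries held 6015933 and 3683169 counts and the WT libraries 4631527 and 2951887, while the human libraries held between 39608249 and 53193449 estimated counts. Prmt1 stood at 51.2 and 32.4 CPM in Ctnnb1-ex3 organoids and at 10.1 and 11.4 CPM in WT organoids. PRMT1 stood at 2.99 and 3.35 CPM in sh-Prmt1 libraries and at 37.0 and 34.2 CPM in sh-scramble libraries. Ctnnb1 was not called different in the mouse organoids (log2 fold change -0.59 ± 0.21, adjusted p = 0.0504), and a count per gene does not show the loss of 1 exon.

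The mouse count table was flattened at high read density, and most of these enzymes are densely covered. The median enzyme had 236 counts per kb of exon, against 48.0 for all genes with a known exon length, and 13 enzymes lay between 200 and 400 and 9 above 400 counts per kb. From genes under 25 to genes above 400 counts per kb, the log2 ratio of replicate 1 over replicate 2 fell by stages: it was 0.91 and 0.34 at these ends in Ctnnb1-ex3 and 0.86 and 0.40 in WT, where the library totals alone give 0.71 and 0.65. Over the same range the median log2 fold change of Ctnnb1-ex3 over WT was 0.53 at the low end and -0.50 at the high end, and the share of genes called lower was 7.87% and 37.1%. The mouse results are therefore given also with read-density offsets, which remove this trend over all genes and were chosen after the data were seen. What causes the flattening was not tested.

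**Figure D1:**
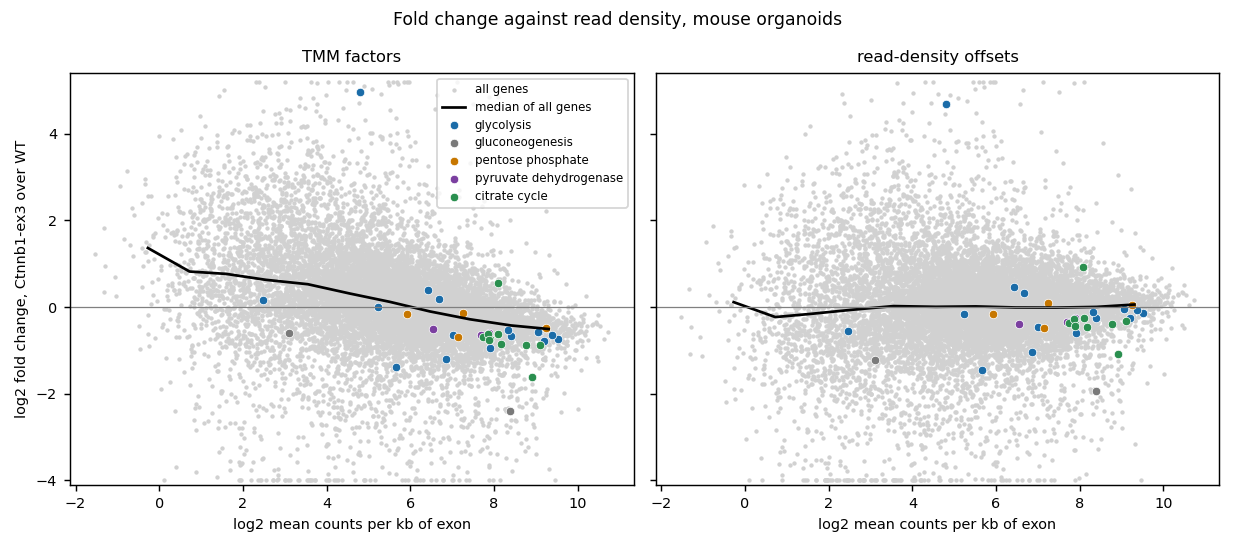
Each point is a gene of the mouse experiment, with log2 mean counts per kb of exon on the horizontal axis and log2 fold change of Ctnnb1-ex3 over WT on the vertical axis, clipped at the panel edges; the black line is the median of all genes and the coloured points are the enzymes. With TMM factors (left) the median of all genes declined towards high density, where most enzymes lie, and with read-density offsets (right) it stayed near 0.

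The sequences before the start sites of the lactate dehydrogenase genes are shown because Ldha and Ldhb, members of the same step, were called in opposite directions in the mouse organoids. Ldha (mm10, chromosome 7, 46841475 to 46855627 in GENCODE, plus strand) encodes the muscle-type subunit and Ldhb (chromosome 6, 142490249 to 142507957, minus strand) the heart-type subunit. The windows are the 250 bases before a RefSeq start, on the gene's strand, on GRCm38.p6, chr7:46845554-46845803 for Ldha and chr6:142507958-142508207 for Ldhb. The GENCODE span of Ldha begins upstream of the RefSeq start used, so the Ldha window lies inside that span. Capitals mark the E-box CACGTG, the core bound by MYC and related factors, and the hypoxia response core ACGTG on either strand, which overlaps it.
Ldha: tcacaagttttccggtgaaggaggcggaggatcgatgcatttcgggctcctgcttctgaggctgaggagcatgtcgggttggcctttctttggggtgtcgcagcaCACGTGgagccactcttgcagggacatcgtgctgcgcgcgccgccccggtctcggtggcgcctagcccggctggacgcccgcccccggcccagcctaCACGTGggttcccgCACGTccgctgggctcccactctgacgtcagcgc
Ldhb: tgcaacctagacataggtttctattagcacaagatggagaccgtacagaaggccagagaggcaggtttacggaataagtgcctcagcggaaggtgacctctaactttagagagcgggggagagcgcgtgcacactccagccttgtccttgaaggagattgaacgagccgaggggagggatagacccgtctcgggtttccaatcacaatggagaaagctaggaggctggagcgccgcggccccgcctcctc
The Ldha window held the E-box at 2 places and 5 matches of ACGTG over both strands, 4 of them inside the E-boxes, and the Ldhb window held none of either. Of the 36 enzymes, 35 had such a window, and 2 of the 35 (5.714%) held the E-box, against 6.021% of 32851 windows of all genes. ACGTG was present in 8 of the 35 (22.86%), against 16.57% of all windows, and the TCF/LEF core CTTTGA in 7 (20%), against 13.83%. These matches describe letters in the window and say nothing about binding.

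In Ctnnb1-ex3 organoids the enzymes leaned lower than in WT organoids, most evenly in the citrate cycle, with Ldhb and Idh2 as the 2 that were higher. Of the 36 enzymes, 21 were called lower, where 20.5% of all 12976 genes tested were called lower, and 2 were called higher, where 20.3% of all genes were. With read-density offsets 15 were lower, against 20.8% of all genes, and 2 higher, against 19.6%. The median log2 fold change of the enzymes was -0.63, and -0.26 with the offsets, while the median of all genes was 0.02 and 0.00. The count called lower was 20 with DESeq2 size factors, 11 with upper-quartile factors and 6 with cyclic loess offsets. It was 17 without Ctnnb1-ex3 replicate 1, 27 without Ctnnb1-ex3 replicate 2, 13 without WT replicate 1 and 6 without WT replicate 2. Leaving out a library leaves its group with 1, which is then assumed to vary like the other group. Gpi1, Pfkp, Aldoc, Ldhb, Fbp1 and Idh1 were called in the same direction under every one of the 13 alternatives.

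**Figure D2:**
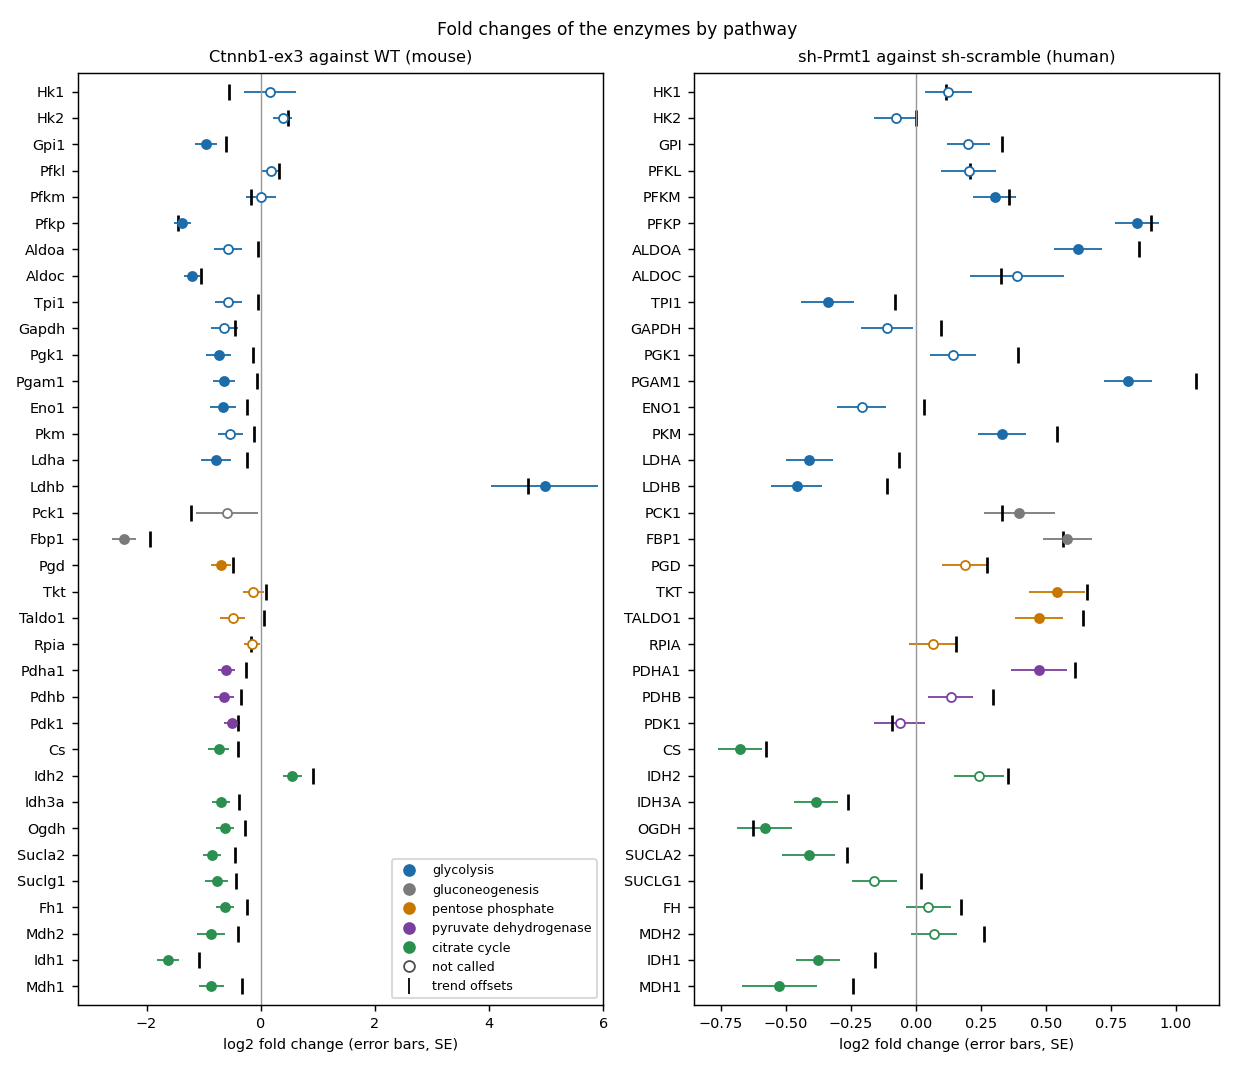
Log2 fold change of each enzyme gene (horizontal axis) with its SE, Ctnnb1-ex3 over WT in mouse organoids on the left and sh-Prmt1 over sh-scramble in human libraries on the right; filled circles passed the test, open circles did not, and black ticks give the value with read-density offsets (left) or cyclic loess offsets (right). On the left 21 enzymes were called lower and Ldhb and Idh2 higher; on the right PFKP and PGAM1 lie highest and CS lowest.

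The hexokinases and phosphofructokinases, which open glycolysis and commit sugar to it, did not move together in the mouse organoids. Hk2, the inducible hexokinase, stood at 113 and 154 CPM in Ctnnb1-ex3 and at 102 and 102 CPM in WT. Its libraries did not overlap, but the log2 fold change of 0.38 ± 0.17 did not pass the test (adjusted p = 0.108). Hk1, the housekeeping hexokinase, had few counts, at 12.3 and 9.25 CPM in Ctnnb1-ex3 and at 12.2 and 6.85 CPM in WT, and its libraries overlapped. Hkdc1, a hexokinase-like gene outside the enzyme list, was chosen after its values were seen. It stood at 34.7 and 15.9 CPM in Ctnnb1-ex3 and at 210 and 214 CPM in WT. Hkdc1 thus fell without overlap (log2 fold change -3.01 ± 0.29, adjusted p = 0.0003, and -2.92, adjusted p = 0.000203, with read-density offsets). Gpi1, the isomerase after hexokinase, stood at 236 and 291 CPM in Ctnnb1-ex3 and at 481 and 541 CPM in WT. Both Ctnnb1-ex3 libraries lay below both WT libraries, and Gpi1 fell (log2 fold change -0.96 ± 0.19, adjusted p = 0.00581, and -0.61, adjusted p = 0.000893, with read-density offsets).

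Among the phosphofructokinase genes, whose products form tetramers at the committed step of glycolysis, Pfkp (platelet type, mm10 chromosome 13, 6579768 to 6648777) fell and Pfkl (liver type) and Pfkm (muscle type) were not called. Pfkp stood at 96.9 and 94.3 CPM in Ctnnb1-ex3 and at 233 and 264 CPM in WT, with no overlap (log2 fold change -1.38 ± 0.15, adjusted p = 0.000483). Read-density offsets left this value at -1.46 (adjusted p = 0.000136). Pfkl stood at 149 and 184 CPM in Ctnnb1-ex3 and at 150.3 and 142 CPM in WT, with overlap (0.18 ± 0.16). For Pfkm the levels were 29.3 and 26.7 CPM in Ctnnb1-ex3 and 31.5 and 24.0 CPM in WT, again with overlap (0.01 ± 0.27). Per kb of exon, Pfkp made up 18.9% and 16.5% of the counts of the 3 genes in Ctnnb1-ex3 and 35.2% and 40.9% in WT, and Pfkl 58.3% and 64.7% in Ctnnb1-ex3 and 45.6% and 44.2% in WT. The leading gene by this measure was Pfkl in every mouse library, by a wide margin in Ctnnb1-ex3 and a narrow one in WT.

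Of the 8 genes described here from aldolase to pyruvate kinase, 4 were called lower in Ctnnb1-ex3 with TMM scaling, and 1 of them, Aldoc, also with read-density offsets. Aldolase splits the sugar bisphosphate, and Aldoc fell in both fits: it stood at 53.7 and 60.4 CPM in Ctnnb1-ex3 and at 137 and 125 CPM in WT (log2 fold change -1.21 ± 0.14, adjusted p = 0.000608, and -1.04 with the offsets, adjusted p = 0.000772). Aldoa, the ubiquitous aldolase, stood at 253 and 371 CPM in Ctnnb1-ex3 and at 394 and 533 CPM in WT. Its libraries did not overlap, but it was not called (-0.57 ± 0.24, adjusted p = 0.0942, and -0.05 with the offsets). Tpi1, the triose isomerase, gave 236 and 350.1 CPM in Ctnnb1-ex3 and 369.98 and 498 CPM in WT (-0.57 ± 0.24, adjusted p = 0.0958, and -0.05 with the offsets). Gapdh, which oxidises triose phosphate, gave 82.5 and 127 CPM in Ctnnb1-ex3 and 135 and 191 CPM in WT (-0.64 ± 0.24, adjusted p = 0.0636, and -0.45 with the offsets). Neither gene was called in either fit, although the libraries of the groups did not overlap. Gapdh has many processed pseudogenes, and how reads shared with them were counted in the mouse table is not given in the sources used here.

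The 4 enzymes from phosphoglycerate to pyruvate gave similar values. Pgk1, the phosphoglycerate kinase that yields ATP, stood at 267 and 350.1 CPM in Ctnnb1-ex3 and at 444 and 584 CPM in WT. Pgam1, the phosphoglycerate mutase, stood at 223 and 284 CPM in Ctnnb1-ex3 and at 352 and 439.7 CPM in WT. Eno1, the main enolase, stood at 293 and 404 CPM in Ctnnb1-ex3 and at 486 and 616 CPM in WT. All 3 were called lower with TMM scaling, with log2 fold changes of -0.74, -0.64 and -0.66 in that order, and none with read-density offsets, where the values were -0.14, -0.07 and -0.25. Pkm, the pyruvate kinase of most dividing cells, stood at 274 and 369 CPM in Ctnnb1-ex3 and at 419 and 510.5 CPM in WT and was called in neither fit (-0.53 ± 0.21, adjusted p = 0.078, and -0.13 with the offsets). Without WT replicate 2 the calls of Pgk1, Pgam1 and Eno1 were also lost. Over all 16 genes of glycolysis, 1 was called higher and 7 lower with a median log2 fold change of -0.61, and with the offsets 1 higher and 3 lower with a median of -0.16. The shares over all genes tested were 20.3% higher and 20.5% lower, and 19.6% and 20.8% with the offsets.

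Lactate dehydrogenase turns pyruvate into lactate and back, and its 2 main subunit genes were called in opposite directions with TMM scaling. Ldhb had 150 and 22 counts in Ctnnb1-ex3 and 2 and 1 counts in WT, where 1 was the lowest value anywhere in the table. Both WT libraries were at or below the floor of 3 counts, and the Ctnnb1-ex3 libraries differed from each other, at 22.5 and 5.65 CPM. The ratio of the summed counts, scaled by library size, was 37.8 with an exact 95% counting interval of 12.7 to 185, and 112 with an interval of 19.9 to 4455 after 1 was taken from every count. Intervals and floors cover counting error only. Ldhb rose in the fit (adjusted p = 0.00477), and with read-density offsets (adjusted p = 0.00426). It was also called with any 1 library left out, where the spread rests on the group that keeps 2 libraries. Ldha remained the predominant gene of the pair, at 293 and 434 CPM in Ctnnb1-ex3 and 518 and 733 CPM in WT. Ldha was called lower with TMM scaling (-0.78 ± 0.26, adjusted p = 0.0422) and not with read-density offsets (-0.24, adjusted p = 0.0669), and not without Ctnnb1-ex3 replicate 1 or without WT replicate 2. Per kb of exon, Ldhb made up 13.9% and 2.67% of the pair's counts in Ctnnb1-ex3 and 0.187% and 0.109% in WT.

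Of the 2 gluconeogenic enzymes, Fbp1 fell and Pck1 was not called. Fbp1 (mm10 chromosome 13, 62864753 to 62888282), the fructose bisphosphatase that opposes phosphofructokinase, stood at 57.7 and 37.2 CPM in Ctnnb1-ex3 and at 249 and 258 CPM in WT. This was a 5.27-fold lower level with no overlap (log2 fold change -2.40 ± 0.21, adjusted p = 0.000222, and -1.93 with read-density offsets, adjusted p = 0.00072). Fewer cells that express a gene and less RNA of it per cell cannot be told apart in these bulk libraries. Pck1, the cytosolic carboxykinase that makes phosphoenolpyruvate, had low and overlapping levels, at 7.51 and 3.08 CPM in Ctnnb1-ex3 and 7.37 and 9.13 CPM in WT (-0.59 ± 0.55, adjusted p = 0.413).

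The pentose phosphate genes changed least of the 3 pathways in the mouse organoids by their medians. Pgd, which makes NADPH and ribulose phosphate in the oxidative arm, stood at 152 and 186 CPM in Ctnnb1-ex3 and at 258 and 292 CPM in WT and fell (log2 fold change -0.70 ± 0.17, adjusted p = 0.0141, and -0.49 with read-density offsets, adjusted p = 0.00943); the call was lost without WT replicate 2. In the arm without oxidation, transketolase Tkt gave 218 and 287 CPM in Ctnnb1-ex3 and 267 and 284 CPM in WT, with overlap (-0.13 ± 0.18). Transaldolase Taldo1 gave 224 and 313 CPM in Ctnnb1-ex3 and 337 and 418 CPM in WT (-0.49 ± 0.22, adjusted p = 0.103, and 0.05 with the offsets). For Rpia, the ribose phosphate isomerase, the levels were 69.3 and 74.5 CPM in Ctnnb1-ex3 and 78.0 and 81.4 CPM in WT (-0.15 ± 0.14). The libraries of these last 3 genes lay close together or overlapped, and none was called in either fit. The median of Pgd, Tkt, Taldo1 and Rpia was -0.32, and -0.06 with the offsets, and the sign turned for Tkt and Taldo1 with the offsets and for Tkt and Rpia with upper-quartile factors.

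The 3 genes of the pyruvate dehydrogenase step were all called lower with TMM scaling, where 20.5% of all genes were. Pdha1 and Pdhb encode the subunits of the decarboxylase that starts the reaction, and Pdk1 encodes a kinase that switches it off. Pdha1 stood at 164 and 173 CPM in Ctnnb1-ex3 and at 245 and 267 CPM in WT (log2 fold change -0.60 ± 0.15, adjusted p = 0.0157). With read-density offsets Pdha1 was not called (-0.25, adjusted p = 0.0767). Pdhb stood at 133 and 170.3 CPM in Ctnnb1-ex3 and at 232 and 243 CPM in WT (-0.65 ± 0.17, adjusted p = 0.0184, and -0.34, adjusted p = 0.0319, with the offsets). Pdk1 stood at 139.6 and 143 CPM in Ctnnb1-ex3 and at 207 and 196 CPM in WT (-0.51 ± 0.14, adjusted p = 0.0222, and -0.40, adjusted p = 0.0149, with the offsets). The groups did not overlap in any of the 3 genes. All 3 calls were lost without WT replicate 1, without WT replicate 2, with upper-quartile factors (median log2 fold change -0.36) and with cyclic loess offsets (median -0.20).

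Every citrate cycle gene passed the test in the mouse organoids, 9 of 10 as lower and Idh2 as higher, and with read-density offsets 8 were lower and Idh2 higher. Upper-quartile factors left 6 lower (median log2 fold change -0.52) and cyclic loess offsets 2 (median -0.29), with 1 higher in each. Over all genes 20.5% were called lower with TMM scaling. All 10 citrate cycle genes lie above 200 counts per kb of exon. Among all genes between 200 and 400 counts per kb 39.9% were called lower, and 25.7% with read-density offsets. Above 400 counts per kb the shares were 37.1% and 18.1%. The entry enzyme Cs (citrate synthase) stood at 235 and 270.2 CPM in Ctnnb1-ex3 and at 392 and 452 CPM in WT (log2 fold change -0.74 ± 0.18, adjusted p = 0.0131, and -0.39 with the offsets). Idh3a, a subunit of the NAD-linked isocitrate dehydrogenase, stood at 192 and 208 CPM in Ctnnb1-ex3 and at 317 and 331 CPM in WT (-0.70 ± 0.16, adjusted p = 0.0101, and -0.38 with the offsets). Ogdh, the oxoglutarate dehydrogenase, stood at 236 and 247 CPM in Ctnnb1-ex3 and at 357 and 389 CPM in WT (-0.63 ± 0.16, adjusted p = 0.0177, and -0.28 with the offsets). In each of these the Ctnnb1-ex3 libraries lay below the WT libraries. The succinate-forming ligase subunits Sucla2 and Suclg1 gave 203 and 199 CPM and 172 and 228 CPM in Ctnnb1-ex3, against 343 and 383 CPM and 304 and 378 CPM in WT. They fell by 0.85 and 0.77 on the log2 scale, and by 0.45 and 0.43 with the offsets. Fumarase Fh1 stood at 165 and 190.1 CPM in Ctnnb1-ex3 and at 259 and 288 CPM in WT (-0.62 ± 0.16, adjusted p = 0.0177) and was not called with the offsets (-0.25, adjusted p = 0.0651). Mdh2, the malate dehydrogenase that closes the cycle, stood at 227 and 329 CPM in Ctnnb1-ex3 and at 428 and 594 CPM in WT (-0.88 ± 0.25, adjusted p = 0.0234, and -0.40 with the offsets). Its cytosolic counterpart Mdh1 gave 218 and 287 CPM in Ctnnb1-ex3 and 394 and 527 CPM in WT (-0.87 ± 0.22, adjusted p = 0.0158, and -0.33 with the offsets). Without WT replicate 2 only Sucla2 and Idh1 of these 10 kept their calls, and without WT replicate 1 the calls of Cs, Idh2, Idh3a, Ogdh and Fh1 were lost.

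The NADP-linked isocitrate dehydrogenases Idh1 (cytosol, mm10 chromosome 1, 65158616 to 65186500) and Idh2 (mitochondria, chromosome 7, 80094846 to 80115392) moved apart. Both make NADPH from isocitrate. Idh1 stood at 170.3 and 172 CPM in Ctnnb1-ex3 and at 463 and 591 CPM in WT, a 3.07-fold lower level (log2 fold change -1.62 ± 0.19, adjusted p = 0.000662, and -1.09 with read-density offsets, adjusted p = 0.000473). Idh2 stood at 164 and 214 CPM in Ctnnb1-ex3 and at 126 and 130.1 CPM in WT, a 1.47-fold higher level (0.56 ± 0.17, adjusted p = 0.0311, and 0.92 with the offsets, adjusted p = 0.000593). Neither pair of groups overlapped, and the call of Idh2 was lost when WT replicate 1 was left out (adjusted p = 0.233) and likewise for WT replicate 2 (adjusted p = 0.157). Per kb of exon, Idh2 made up 50.8% and 57.0% of the counts of the pair in Ctnnb1-ex3 and 22.6% and 19.1% in WT. The pair was thus nearly even in Ctnnb1-ex3 libraries and mostly Idh1 in WT libraries.

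**Figure D3:**
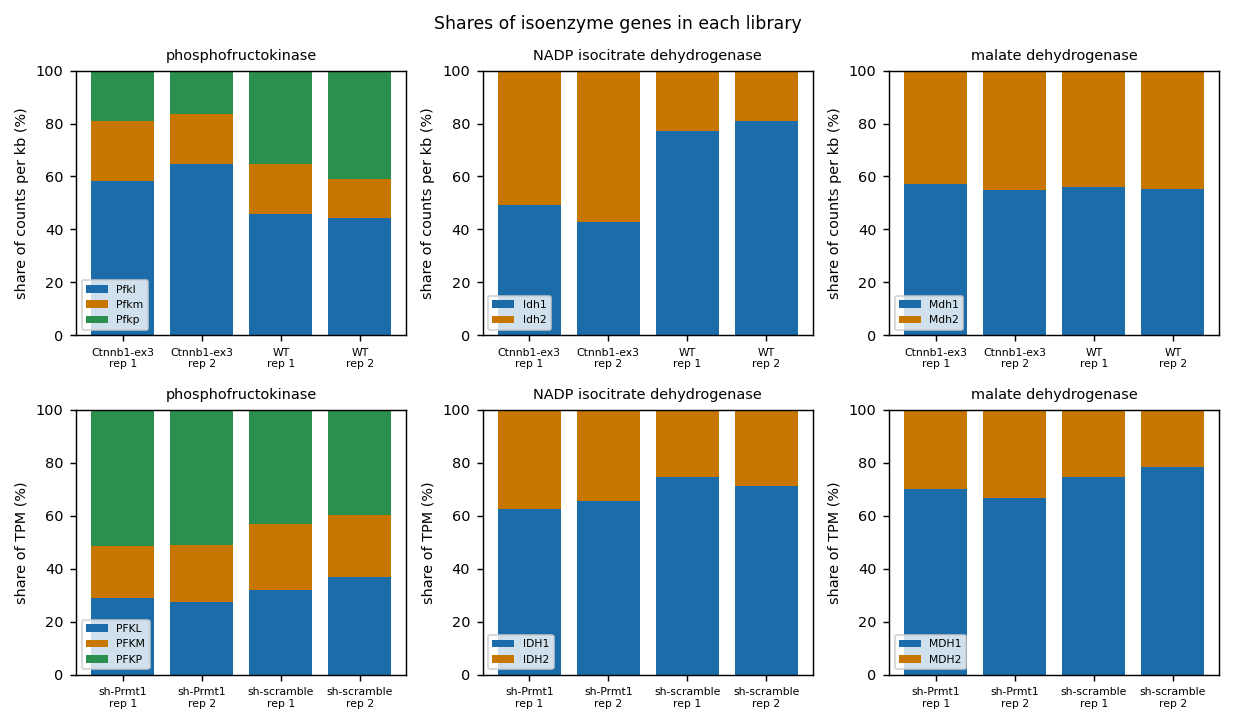
Stacked bars give the share of each isoenzyme gene within its class in every library, in percent of counts per kb of exon for mouse organoids (top) and in percent of TPM for human libraries (bottom). Pfkp fell to 18.9% and 16.5% in Ctnnb1-ex3, against 35.2% and 40.9% in WT, and PFKP reached 51.3% and 51.2% in sh-Prmt1, against 43.1% and 39.5% in sh-scramble.

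Of the further genes of the same pathways, those of glycolysis and the citrate cycle were mostly called lower in the mouse organoids. Of 27 further genes listed with glycolysis and tested, 3 were higher and 14 lower, also with read-density offsets. Besides glycolytic enzymes this list holds transporters, gluconeogenic genes and enzymes of fructose entry. The 3 largest changes were in G6pc, the glucose phosphatase that ends gluconeogenesis, in Slc2a2, the basolateral glucose transporter, and in Slc2a5, the fructose transporter. G6pc stood at 13.5 and 1.54 CPM in Ctnnb1-ex3 and at 216 and 193 CPM in WT (log2 fold change -4.58 ± 0.49, adjusted p = 0.000465). Slc2a2 stood at 15.9 and 9.76 CPM in Ctnnb1-ex3 and at 223 and 235 CPM in WT (-4.11 ± 0.21, adjusted p = 4.22e-05). Slc2a5 stood at 26.9 and 16.2 CPM in Ctnnb1-ex3 and at 182 and 176 CPM in WT (-3.02 ± 0.22, adjusted p = 0.000118). These 3 products of absorptive cells lay far apart between the groups in every library. Chosen after their values were seen, Pck2, the mitochondrial carboxykinase, was higher (0.98 ± 0.15, adjusted p = 0.00209), and the liver-type pyruvate kinase Pklr was lower (-2.26 ± 0.16, adjusted p = 0.000111). The background over all genes was 20.3% higher and 20.5% lower. Of 6 other pentose phosphate genes tested, 1 was higher (Prps2, which makes the ribose donor of nucleotides, 0.60 ± 0.16, adjusted p = 0.0221) and 2 lower (Shpk, -1.81, and Rpe, -0.75). Of 12 genes of the pyruvate dehydrogenase complex, its regulators and pyruvate carriers, 6 were lower, led by Dld (-1.05), Pdk2 (-0.97) and the carrier Mpc1 (-0.92). Of 15 other citrate cycle genes, 12 were lower and 1 higher, and with the offsets 8 lower and 1 higher. Ogdhl, a relative of Ogdh, was the higher one, at 6.61 and 3.34 CPM in Ctnnb1-ex3 and 0.69 and 0.38 CPM in WT, where its counts were at or below the floor of 3 (adjusted p = 0.0116). Malic enzyme Me1 (-1.58 ± 0.18, adjusted p = 0.000535) and the succinate dehydrogenase subunit Sdhd (-0.89 ± 0.22, adjusted p = 0.0144) were the largest falls, and Sdhd was not called with the offsets (-0.21, adjusted p = 0.0957).

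Markers of absorptive and stem cells differed between Ctnnb1-ex3 and WT organoids, whose medium also differed. Of 12 enterocyte markers 11 were lower, with a summed level of 1644 and 1370.5 CPM in Ctnnb1-ex3 and 5473 and 6725 CPM in WT. All 6 stem cell markers were higher, with sums of 1065 and 1236 CPM in Ctnnb1-ex3 and 310.4 and 333 CPM in WT, and 4 of 8 proliferation markers were higher. Those 4 were Mki67 (log2 fold change 0.84), Top2a (0.59), Mcm3 (1.30) and Mcm5 (0.98), while Pcna (-0.09), Ccnb1 (-0.03), Cdk1 (-0.04) and Birc5 (-0.15) were not called. With read-density offsets Pcna was called higher too (0.36, adjusted p = 0.0187). The enterocyte and stem cell counts were the same with these offsets. Epithelial markers were present in all 4 libraries, at 1872 and 2596 CPM in Ctnnb1-ex3 and 2663 and 3424 CPM in WT in sum, and 6 of 8 intestinal markers were lower. With read-density offsets 4 of the 8 intestinal markers were lower. Of 8 epithelial markers 1 was higher and 2 lower, and with the offsets 2 were higher and 0 lower. Over all genes 20.3% were higher and 20.5% lower, and 19.6% and 20.8% with the offsets. Stromal and endothelial markers summed to 46.4 and 33.4 CPM in Ctnnb1-ex3 and 29.9 and 13.7 CPM in WT, and immune and blood markers to 62.1 and 119 CPM in Ctnnb1-ex3 and 119.95 and 36.9 CPM in WT. Gzma, a product of cytotoxic lymphocytes, reached 28.3 CPM in Ctnnb1-ex3 replicate 2 and at most 0.38 CPM in the other 3 libraries. The part of these cell type differences in the enzyme values was not tested.

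**Figure D4:**
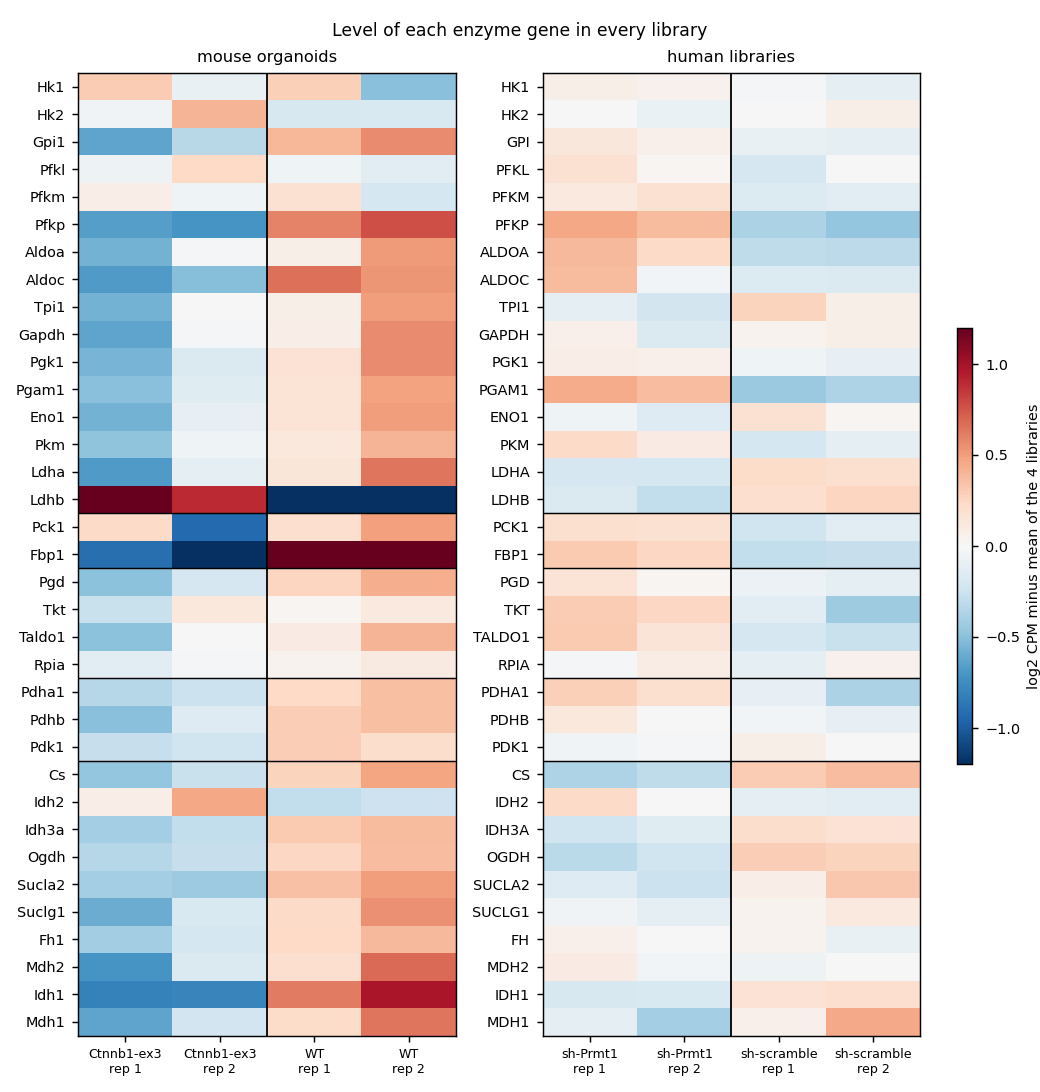
Log2 CPM of each enzyme gene (rows) in each library (columns) minus its mean over the 4 libraries of the experiment, with colours capped at 1.2 in either direction; the vertical line separates the groups and horizontal lines separate glycolysis, gluconeogenesis, pentose phosphate, pyruvate dehydrogenase and citrate cycle from top to bottom. In the mouse organoids most rows are blue in Ctnnb1-ex3 and red in WT, with replicate 2 of Ctnnb1-ex3 and replicate 1 of WT nearer to each other, and Ldhb and Idh2 show the opposite; the human libraries differ less.

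In the sh-Prmt1 libraries the listed pentose phosphate enzymes leaned higher, the listed citrate cycle enzymes leaned lower, and glycolysis held changes of both kinds. Further genes of the first 2 pathways, described below, leaned the other way: of 6 other pentose phosphate genes none was called higher and 3 were called lower, and of 15 other citrate cycle genes 6 were higher and 3 lower. Of the 36 enzymes, 11 were called higher, where 20.5% of all 18452 genes tested were called higher, and 9 lower, where 20.4% of all genes were. The median log2 fold change of the enzymes was 0.13, against 0.03 for all genes. Abundant genes leaned lower in this comparison: the median over all genes was 0.10 under 2 log2 CPM, -0.13 between 6 and 8, -0.20 between 8 and 10 and -0.34 above 10. Of the enzymes, 14 lay between 6 and 8 log2 CPM, 9 between 8 and 10 and 2 above 10. Cyclic loess offsets, which remove this trend, gave 15 enzymes higher, against 20.6% of all genes, and 3 lower, against 19.6%. The count called higher was 7 without sh-scramble replicate 1 and between 8 and 10 with any other library left out. PFKP, ALDOA, PGAM1, FBP1, TKT, TALDO1, PDHA1 and CS were called in the same direction under all 13 alternatives.

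At the head of glycolysis PFKP and PFKM were called higher. HK1 gave 24.4 and 24.1 CPM in sh-Prmt1 and 23.0 and 21.5 CPM in sh-scramble (log2 fold change 0.13 ± 0.09), and HK2 62.9 and 59.2 CPM in sh-Prmt1 and 62.6 and 65.9 CPM in sh-scramble (-0.07 ± 0.08). Neither passed the test. HKDC1, a hexokinase-like gene, had a higher level per length than either, at 18.5 and 15.5 TPM in sh-Prmt1 and 9.87 and 9.97 TPM in sh-scramble, where TPM is a level scaled for gene length, and it rose (0.53 ± 0.08, adjusted p = 0.000855). GPI stood at 129 and 122 CPM in sh-Prmt1 and at 109.99 and 108 CPM in sh-scramble and was called only with cyclic loess offsets (0.20 ± 0.08, adjusted p = 0.0791, and 0.33, adjusted p = 0.00962). PFKP stood at 67.6 and 64.1 CPM in sh-Prmt1 and at 37.6 and 35.4 CPM in sh-scramble, a 1.80-fold higher level without overlap (0.85 ± 0.09, adjusted p = 6.36e-05). PFKM stood at 53.4 and 55.9 CPM in sh-Prmt1 and at 43.9 and 44.7 CPM in sh-scramble (0.30 ± 0.08, adjusted p = 0.0149), and its call was lost without sh-Prmt1 replicate 2 and without either sh-scramble library. PFKL gave 32.2 and 28.8 CPM in sh-Prmt1 and 24.5 and 28.4 CPM in sh-scramble and was not called (0.20 ± 0.11). By TPM, PFKP made up 51.3% and 51.2% of the 3 phosphofructokinase genes in sh-Prmt1 and 43.1% and 39.5% in sh-scramble.

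Of the middle and lower steps of glycolysis, ALDOA and PGAM1 rose most. ALDOA stood at 519.9 and 466 CPM in sh-Prmt1 and at 321 and 318 CPM in sh-scramble (log2 fold change 0.62 ± 0.09, adjusted p = 0.000599). PGAM1 stood at 731 and 695 CPM in sh-Prmt1 and at 394 and 416 CPM in sh-scramble, a 1.76-fold higher level (0.82 ± 0.09, adjusted p = 0.000108). PKM stood at 361 and 330.1 CPM in sh-Prmt1 and at 266 and 284 CPM in sh-scramble (0.33 ± 0.09, adjusted p = 0.0173), and its call was lost without sh-Prmt1 replicate 1 and without sh-scramble replicate 1. The groups of these 3 genes did not overlap. ALDOC gave 6.94 and 5.07 CPM in sh-Prmt1 and 4.58 and 4.55 CPM in sh-scramble (0.39 ± 0.18, adjusted p = 0.117). PGK1 gave 501 and 493 CPM in sh-Prmt1 and 457 and 443 CPM in sh-scramble, and was not called with TMM scaling (0.14 ± 0.09, adjusted p = 0.222) but higher with cyclic loess offsets (0.39, adjusted p = 0.0052) and on log2(TPM + 1). GAPDH gave 304 and 259 CPM in sh-Prmt1 and 300.2 and 307 CPM in sh-scramble, with overlap (-0.11 ± 0.10, and 0.10 with the offsets). ENO1 gave 425 and 396 CPM in sh-Prmt1 and 501 and 449 CPM in sh-scramble and was called in neither fit (-0.21 ± 0.10, and 0.03 with the offsets). TPI1 stood at 508 and 473 CPM in sh-Prmt1 and at 662 and 578 CPM in sh-scramble and was called lower (-0.34 ± 0.10, adjusted p = 0.0229), but not with the offsets (-0.08), without sh-Prmt1 replicate 2 or without sh-scramble replicate 1.

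Both lactate dehydrogenase genes were called lower in sh-Prmt1 libraries, and neither call held with cyclic loess offsets. LDHA stood at 1313 and 1308 CPM in sh-Prmt1 and at 1759 and 1721 CPM in sh-scramble (log2 fold change -0.41 ± 0.09, adjusted p = 0.00595, and -0.06, adjusted p = 0.62, with the offsets). LDHB stood at 1409 and 1295 CPM in sh-Prmt1 and at 1827 and 1889 CPM in sh-scramble (-0.46 ± 0.10, adjusted p = 0.0042, and -0.11, adjusted p = 0.396, with the offsets). The groups of neither gene overlapped, and these were the 2 enzymes of the 36 above 10 log2 CPM. By TPM, LDHB made up 70.0% and 68.5% of the pair in sh-Prmt1 and 66.3% and 67.5% in sh-scramble, so the human libraries expressed mainly LDHB, unlike the mouse organoids, where Ldha led in every library.

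FBP1 and PCK1 of gluconeogenesis were both called higher in sh-Prmt1 libraries. FBP1 stood at 26.4 and 25.2 CPM in sh-Prmt1 and at 17.1 and 17.4 CPM in sh-scramble (log2 fold change 0.58 ± 0.09, adjusted p = 0.000846). PCK1 stood at 7.71 and 7.62 CPM in sh-Prmt1 and at 5.58 and 6.04 CPM in sh-scramble (0.40 ± 0.14, adjusted p = 0.0423), was not called with cyclic loess offsets (0.33, adjusted p = 0.0826), and lost its call with any 1 of the 4 libraries left out. PCK2, with more TPM than PCK1 in every library (11.6 and 9.99 in sh-Prmt1, 8.31 and 8.77 in sh-scramble), was not called (0.10 ± 0.10, adjusted p = 0.488).

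In the pentose phosphate pathway transketolase and transaldolase were called higher. TKT stood at 127 and 122 CPM in sh-Prmt1 and at 94.5 and 76.5 CPM in sh-scramble (log2 fold change 0.54 ± 0.11, adjusted p = 0.00298). TALDO1 stood at 235 and 209.7 CPM in sh-Prmt1 and at 164 and 157 CPM in sh-scramble (0.47 ± 0.09, adjusted p = 0.00271). In both enzymes, which shuttle carbon between pentoses and glycolysis, the groups did not overlap, and the calls held with cyclic loess offsets (0.66 and 0.64). PGD gave 79.3 and 72.1 CPM in sh-Prmt1 and 67.3 and 65.6 CPM in sh-scramble (0.19 ± 0.09, adjusted p = 0.114) and was called higher with the offsets (0.27, adjusted p = 0.0299). RPIA gave 72.8 and 78.4 CPM in sh-Prmt1 and 68.1 and 76.3 CPM in sh-scramble, with overlap (0.07 ± 0.09). The summed level of these 4 was 515 and 482 CPM in sh-Prmt1 and 394 and 375 CPM in sh-scramble.

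PDHA1 was the called gene of the pyruvate dehydrogenase step. PDHA1 stood at 159.9 and 149 CPM in sh-Prmt1 and at 122 and 100.3 CPM in sh-scramble (log2 fold change 0.47 ± 0.11, adjusted p = 0.00603). PDHB gave 194 and 178 CPM in sh-Prmt1 and 173 and 166 CPM in sh-scramble and was called higher only with cyclic loess offsets (0.13 ± 0.09, adjusted p = 0.26, and 0.30, adjusted p = 0.0219). The kinase PDK1 gave 18.1 and 18.3 CPM in sh-Prmt1 and 19.5 and 18.5 CPM in sh-scramble and was called in neither fit (-0.06 ± 0.10).

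In the citrate cycle 6 of 10 genes were called lower and the other 4 were not called, where 20.4% of all genes were called lower. Most of the 10 lie between 6 and 8 log2 CPM, where 39.8% of all genes were called lower. CS stood at 65.7 and 68.5 CPM in sh-Prmt1 and at 105 and 109.7 CPM in sh-scramble, a 1.60-fold lower level (log2 fold change -0.68 ± 0.08, adjusted p = 0.000195, and -0.58 with cyclic loess offsets). OGDH stood at 11.9 and 12.7 CPM in sh-Prmt1 and at 18.7 and 18.3 CPM in sh-scramble (-0.58 ± 0.11, adjusted p = 0.00179, and -0.63 with the offsets). IDH3A stood at 91.3 and 97.1 CPM in sh-Prmt1 and at 125 and 121 CPM in sh-scramble (-0.38 ± 0.08, adjusted p = 0.00517, and -0.26 with the offsets). These 3, which carry the entry step and the oxidative decarboxylations, were lower in both fits and in each of the 4 sets with 1 library left out. SUCLA2 gave 127 and 118 CPM in sh-Prmt1 and 149.6 and 177 CPM in sh-scramble (-0.41 ± 0.10, adjusted p = 0.00959, and -0.27, adjusted p = 0.0515, with the offsets). MDH1 gave 628 and 509.5 CPM in sh-Prmt1 and 709 and 928 CPM in sh-scramble (-0.53 ± 0.14, adjusted p = 0.0157, and -0.24, adjusted p = 0.18, with the offsets). IDH1 gave 299.9 and 302 CPM in sh-Prmt1 and 387 and 395 CPM in sh-scramble (-0.38 ± 0.09, adjusted p = 0.00605, and -0.16, adjusted p = 0.171, with the offsets). These 3 calls thus ended with the offsets, and those of SUCLA2 and MDH1 also without sh-Prmt1 replicate 2. The remaining mitochondrial enzymes were not called: SUCLG1 gave -0.16 ± 0.09, FH 0.05 ± 0.09, MDH2 0.07 ± 0.09 and IDH2 0.24 ± 0.10 on the log2 scale, of which IDH2 (0.35, adjusted p = 0.013) and MDH2 (0.26, adjusted p = 0.0372) were called higher with the offsets. By TPM, IDH2 made up 37.3% and 34.5% of the NADP-linked pair in sh-Prmt1 and 25.5% and 28.7% in sh-scramble, and MDH1 70.0% and 66.9% of the malate dehydrogenase pair in sh-Prmt1 and 74.5% and 78.3% in sh-scramble.

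Subunits of the same citrate cycle enzyme moved in different directions in the sh-Prmt1 libraries. IDH3B, with more TPM than IDH3A in every library, rose to 128 and 117 CPM in sh-Prmt1, against 95.3 and 95.3 CPM in sh-scramble (log2 fold change 0.36 ± 0.09, adjusted p = 0.00792), while IDH3A fell. IDH3G, chosen after its values were seen, also rose (0.57 ± 0.09, adjusted p = 0.000649). Within succinate dehydrogenase, which links the cycle to respiration, SDHA stood at 104 and 96.2 CPM in sh-Prmt1 and at 54.0 and 52.0 CPM in sh-scramble (0.92 ± 0.09, adjusted p = 4.54e-05). SDHD stood at 761 and 763 CPM in sh-Prmt1 and at 1361 and 1576 CPM in sh-scramble (-0.95 ± 0.10, adjusted p = 9.7e-05, and -0.63, adjusted p = 0.000523, with cyclic loess offsets). The catalytic flavoprotein and the membrane anchor thus lay on opposite sides, with no overlap in either. The median log2 fold change of the 15 other citrate cycle genes was 0.36.

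Of 23 further genes listed with glycolysis and tested in the human libraries, 4 were higher and 6 lower. These counts, from a list that includes transporters and gluconeogenic genes, were near the shares over all genes of 20.5% and 20.4%. LDHC, the lactate dehydrogenase subunit known from testis, stood at 7.40 and 9.07 CPM in sh-Prmt1 and at 40.0 and 46.4 CPM in sh-scramble, a 5.22-fold lower level (log2 fold change -2.39 ± 0.13, adjusted p = 5.02e-06). PFKFB2, which makes the activator of phosphofructokinase, stood at 13.7 and 12.0 CPM in sh-Prmt1 and at 30.02 and 32.0 CPM in sh-scramble (-1.28 ± 0.10, adjusted p = 2.19e-05). No library of either group overlapped in these 2 genes. Under the naming rule's minimum level, G6PC3, the ubiquitous glucose phosphatase, came next (-0.84 ± 0.14, adjusted p = 0.00108). Of 6 other pentose phosphate genes, 3 were lower: H6PD, the dehydrogenase of the endoplasmic reticulum (-1.03), PRPS1 (-0.52) and RPE (-0.32), the last of which was not called with cyclic loess offsets (adjusted p = 0.123). Of 12 further genes of the pyruvate dehydrogenase step, 4 were higher and 1 lower, with the regulators PDK4 (1.39 ± 0.23, adjusted p = 0.00107), PDPR (0.89 ± 0.10, adjusted p = 0.000144) and PDK3 (-0.72 ± 0.09, adjusted p = 0.000206) changing most. Epithelial markers summed to 3467 and 3369 CPM in sh-Prmt1 and 2723 and 2685 CPM in sh-scramble, and stromal and endothelial markers to at most 1.92 CPM. Enterocyte markers summed to 5767 and 5872 CPM in sh-Prmt1 and 7588 and 8253 CPM in sh-scramble, with 3 of 8 tested higher and 2 lower. With cyclic loess offsets 3 enterocyte markers were higher and 1 lower, and of the 8 proliferation markers 2 were lower. Proliferation markers summed to 2046 and 2032 CPM in sh-Prmt1 and 2719.5 and 2719.7 CPM in sh-scramble, with 5 of 8 lower with TMM scaling. Immune and blood markers summed to 9.25 and 9.61 CPM in sh-Prmt1 and 4.40 and 4.01 CPM in sh-scramble. The part of these markers in the enzyme values was not tested.

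Among the listed enzymes of glycolysis, the pentose phosphate pathway and the citrate cycle, the citrate cycle had the lowest median log2 fold change in both experiments and the pentose phosphate pathway the highest. The 2 gluconeogenic enzymes lay outside this range, with medians of -1.49 in the mouse experiment and 0.49 in the knockdown. In Ctnnb1-ex3 over WT the median log2 fold change was -0.61 in glycolysis, -0.32 over the 4 pentose phosphate genes described above and -0.75 in the citrate cycle, and -0.16, -0.06 and -0.38 with read-density offsets. Summed over the 10 citrate cycle genes, the level was 1982 and 2345 CPM in Ctnnb1-ex3 and 3383 and 4062 CPM in WT. In sh-Prmt1 over sh-scramble the medians were 0.17, 0.33 and -0.38, and 0.27, 0.46 and -0.20 with cyclic loess offsets. Here the 10 citrate cycle genes summed to 1918 and 1748 CPM in sh-Prmt1 and 2147 and 2412 CPM in sh-scramble. This order held under all 13 alternatives of the knockdown experiment and under all but 1 of the 13 of the mouse experiment, since without Ctnnb1-ex3 replicate 2 glycolysis (-0.87) lay below the citrate cycle (-0.84). The further genes of the pathways did not follow this order in the knockdown, where their medians were 0.06 in glycolysis, -0.27 in the pentose phosphate pathway and 0.36 in the citrate cycle. In the mouse experiment their medians were -0.683, -0.242 and -0.685, with glycolysis and the citrate cycle almost equal. With read-density offsets they were -0.72, -0.22 and -0.32, so the glycolysis list lay lowest and the order did not hold. That list of further genes also holds transporters, gluconeogenic genes and enzymes of fructose entry. Medians over lists of unequal read density and level are descriptions of these libraries, with no test of the difference between pathways.

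The experiments share no library, so their calls can be set side by side. Lower in both were 7 enzymes, Ldha, Cs, Idh3a, Ogdh, Sucla2, Idh1 and Mdh1, of which 6 are citrate cycle genes or their cytosolic counterparts; with read-density offsets in the mouse experiment Ldha left this group. With cyclic loess offsets in the knockdown LDHA (adjusted p = 0.62), SUCLA2 (adjusted p = 0.0515), IDH1 (adjusted p = 0.171) and MDH1 (adjusted p = 0.18) lost their calls there. Cs, Idh3a and Ogdh were lower in both experiments with read-density offsets in the mouse and cyclic loess offsets in the knockdown. With cyclic loess offsets in the mouse experiment, 2 of the 10 citrate cycle genes were lower, and Cs, Idh3a and Ogdh were not among them. The share of all genes that is lower in both was not computed, since the genes of the species were matched for these lists alone. Neither of the 2 enzymes higher in Ctnnb1-ex3 was called higher in sh-Prmt1 with TMM scaling. With cyclic loess offsets IDH2 was called higher there (0.35, adjusted p = 0.013), so Idh2 was higher in both with offsets in both experiments. Pfkp, Pgam1, Fbp1 and Pdha1 were lower in Ctnnb1-ex3 and higher in sh-Prmt1, and with read-density offsets Pfkp and Fbp1 remained. With read-density offsets in the mouse and cyclic loess offsets in the knockdown, Gpi1, Pgd, Pdhb and Mdh2 joined them. These were then lower in Ctnnb1-ex3 and higher in sh-Prmt1. Ldhb was higher in Ctnnb1-ex3 and lower in sh-Prmt1, the second of these not with cyclic loess offsets. Hk1, Hk2, Pfkl, Gapdh and Rpia were called in neither experiment.

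**Figure D5:**
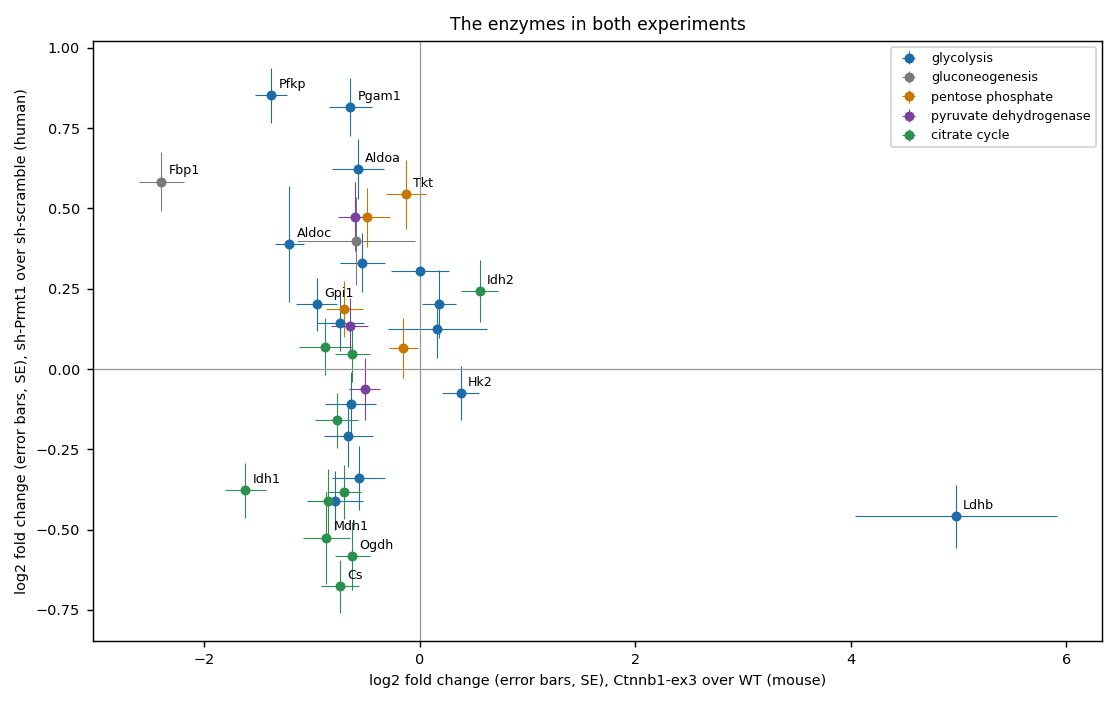
Log2 fold change of each enzyme gene in Ctnnb1-ex3 over WT (horizontal axis, mouse) against sh-Prmt1 over sh-scramble (vertical axis, human), with SE bars and colours by pathway. The citrate cycle genes lie mostly at the lower left, Pfkp and Fbp1 at the upper left, and Ldhb alone at the far right.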

How the data were processed

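RNA libraries of 8 samples, 2 per group, were analysed. The authors deposited whole-number counts per gene for the mouse experiment, and gene-level files with estimated counts and TPM for the knockdown experiment, written by Salmon per the file headers. The submitters' processing notes name mm10, Salmon and DESeq2, with no versions, and the human annotation is not given in the sources used here. The lowest deposited count was 1, and 861 genes stood at 1 in all 4 mouse libraries. The authors' deposited tables of comparisons give log2 fold changes, adjusted p-values and mean TPM, and were used only for a count: at an adjusted p-value under 0.05 they hold 2 of the 36 enzymes higher and 22 lower in Ctnnb1-ex3, and 8 higher and 9 lower in sh-Prmt1.

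Estimated counts were rounded to whole numbers. Each experiment was fitted on its own in edgeR 4.0.16 (R 4.3.3) with filterByExpr, TMM factors and the quasi-likelihood F test, with p-values adjusted by Benjamini-Hochberg across every gene tested, and the SE was the log2 fold change divided by the square root of F. With 2 libraries against 2, a two-sided exact permutation test of 1 gene cannot go below 0.333. Alternatives used limma 3.58.1 and DESeq2 1.42.0, other factors, a filter left out, limma on log2(TPM + 1), and each library left out. The script was tested on simulated data. Of the mouse genes tested, 12318 had an exon length on mm10, and read-density offsets were fitted to those with a mean count of at least 20. Genes without a length took the value at the median density of the fitted genes. Members and lists were chosen with earlier results of these data known. By rule every enzyme is named, and of the further genes of each pathway up to 3 called genes with the largest absolute log2 fold change and an average log2 CPM of at least 1, together with isoenzymes of higher level per length and the targeted genes. A few genes that this rule covers, among them 1 pentose phosphate enzyme, are not reported here, although the counts over the 36 enzymes include it.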

Additional observations from a re-analysis of the deposited data

How the results depend on the processing

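The mouse count of enzymes called lower, 21 as reported, was 11 with upper-quartile factors, which shift the median of all genes by 0.24, and 6 with cyclic loess offsets, and lay between 6 and 27 with 1 library left out. The count called higher, 2 as reported, was 4 with cyclic loess offsets and between 1 and 3 with 1 library left out. In the knockdown, 11 enzymes were called higher as reported, 7 with no filter on low counts and between 7 and 10 with 1 library left out. The 9 called lower became 3 with cyclic loess offsets and 1 with limma on log2(TPM + 1), and lay between 6 and 10 with 1 library left out. The cause of these moves was not tested.

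No enzyme called as reported changed sign. Among those not called, values on the other side of 0 were, with cyclic loess offsets, -0.36 for Hk1, -0.34 for Pfkm, 0.0059 for Pkm, 0.31 for Tkt, 0.0974 for GAPDH, 0.0326 for ENO1 and 0.0191 for SUCLG1. With read-density offsets they were -0.56 for Hk1, -0.17 for Pfkm, 0.10 for Tkt and 0.0488 for Taldo1, and with upper-quartile factors 0.11 for Tkt and 0.0874 for Rpia. Pfkm was -0.019 with DESeq2 size factors, -0.0069 with DESeq2 and -0.0052 with limma-voom, and FH was -0.0124 with DESeq2. On log2(TPM + 1), HK2 was 0.093, GAPDH 0.17, ENO1 0.0167, PDK1 0.076 and SUCLG1 0.0384, and with length-scaled counts GAPDH was 0.0096. With 1 library left out, Hk1 lay between -0.18 and 0.63, Pfkm between -0.18 and 0.20, Tkt between -0.34 and 0.0441, RPIA between -0.0623 and 0.135, FH between -0.0298 and 0.0655 and MDH2 between -0.0092 and 0.116.

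Deviations of libraries with the same replicate number correlated at 0.071 in the mouse experiment and -0.051 in the knockdown. The labels do not say whether these numbers pair libraries. A correlation over all genes, which per-gene noise can dominate, does not settle it. With a replicate block, 2 enzymes were higher and 26 lower in Ctnnb1-ex3, and 9 higher and 9 lower in sh-Prmt1. Depth limits mainly Hk1, Pck1 and Ldhb in the mouse libraries.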
